A study of Mus musculus with 16 samples.

Results

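SMAD4 is the shared partner of the receptor-activated SMADs. When TGFβ, activin or BMP ligands engage their receptors, the phosphorylated SMADs join SMAD4, enter the nucleus and bind DNA next to cooperating transcription factors. The complex can halt division of epithelial cells, raise extracellular matrix and cytokine genes, and shift epithelial cells towards a mesenchymal state. SMAD4 is often lost in pancreatic ductal adenocarcinoma (PDAC), where TGFβ can restrain the tumour or feed its fibrotic stroma. The data described here are the lung metastases of a mouse model in which Smad4 was switched off while the tumour formed and was then switched back on. The comparison asked how far the open chromatin of the metastatic cells differed between those states.

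Chromatin accessibility was measured by ATAC-seq, in which the Tn5 transposase inserts sequencing adaptors into open DNA. The lung metastases made up 6 of the 16 samples, 3 with Smad4 off and 3 with Smad4 restored (Smad4 on), and were chosen by their sample labels alone. Pancreas tumours (6 samples) and liver metastases (4 samples) of the same model are used only where a difference between organs was tested. The tumour cells came from KC-shSmad4 mice, which carry Ptf1a-Cre (active in the embryonic and acinar pancreas), a Rosa26 LSL-rtTA3-IRES-mKate2 allele and, at the Col1a1 locus, a doxycycline-inducible, GFP-linked Smad4 shRNA. The model had 2 independent hairpins and several tumour-derived lines, and which line gave each sample was not given in the sources used here. In each sample, cells also marked with luciferase were injected into a tail vein (250000 cells) of a female Foxn1 nu (athymic nude) host aged 6 to 8 weeks, which lacks mature T cells. Both lung groups received doxycycline chow for 6 weeks. In the Smad4 off group the chow was kept, and in the Smad4 on group it was replaced by regular chow for 14 days (the column names of the deposited table say day 15). Doxycycline and Smad4 therefore changed together and their effects cannot be told apart. From each mouse 60000 mKate2+ tumour cells were sorted. The hairpin acts on RNA, so accessibility at Smad4 is no check of the labels: the peak at its start held normalised counts of 749, 807 and 741 with Smad4 off and 811, 752 and 844 with Smad4 on.

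The lung libraries held 26.6 M to 35.4 M reads in peaks, and 136630 nuclear peaks were compared. One library stood apart. On the distal part of chromosome 6 (124.006 to 149.586 Mb, 2411 peaks), the median log2 deviation from the lung median was 1.61 in Smad4 off replicate 1, 0.34 and −0.20 in the other Smad4 off samples, and 0.08, −0.36 and −0.30 in the Smad4 on samples. A DNA copy gain and a chromatin change cannot be told apart from these counts, and differences at genes on this stretch are given with that mark. Regional shifts were not limited to it. Elsewhere, 19 windows of 2 Mb lay over 0.5 and 11 under −0.5 in Smad4 off replicate 1, and 10 lay under −0.5 in Smad4 off replicate 2. The lowest window of Smad4 on replicate 2 was at −1.66. Genes in shifted windows are not marked, except Plxna4. Among markers of PDAC cells, 11 of 11 genes had a peak at their start, with a median count of 3656. Of the alveolar type 2 markers, Sftpc, Sftpb, Sftpa1, Lamp3 and Lyz2 had none, and the other 2 had a median count of 726. The median at starts with a peak was 688 for club and ciliated cells, 239 for leukocytes, 91.1 for alveolar type 1 cells, 72.1 for hepatocytes, 50.8 for endothelial cells and 12.4 for fibroblasts. The nearest peaks to the starts of Cdkn2a and Cdkn2b, tumour suppressors that PDAC cells commonly delete, lay 17253 bp and 46100 bp away and held fewer than 3 normalised counts in every lung sample.

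The 8 regions below carried the differences that the results turn on, the 5 regions called after restoration and, after them, 3 that limma called only when samples were paired by replicate number. Each is shown as 300 bases of its peak on the plus strand of mm10 (sequence from GRCm38.p6), in lower case. The window is central except at Irf8, where it was moved by 70 bases in the exon peak and by −158 in the promoter peak. Capitals mark letters of 4 motif families on either strand. These are the SMAD box (GTCTAGAC or CAGACA), the SMAD GC element (GGCGCC or GGCCGC), AP-1 (TGANTCA) and RUNX (TGTGGT). Of the central windows of all peaks, 26.3% held a SMAD box, 8.57% a SMAD GC element, 34.1% an AP-1 and 27.0% a RUNX match. A match is a run of letters and not a bound site.
Gli2 promoter peak, chr1:119052656-119052955: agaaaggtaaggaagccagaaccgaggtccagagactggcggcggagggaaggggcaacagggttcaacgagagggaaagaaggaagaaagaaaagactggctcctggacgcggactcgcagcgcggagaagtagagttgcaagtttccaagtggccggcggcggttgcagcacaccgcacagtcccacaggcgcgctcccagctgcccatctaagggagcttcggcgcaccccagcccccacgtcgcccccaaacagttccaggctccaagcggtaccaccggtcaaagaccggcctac
Gli2 intron peak, chr1:119047953-119048252: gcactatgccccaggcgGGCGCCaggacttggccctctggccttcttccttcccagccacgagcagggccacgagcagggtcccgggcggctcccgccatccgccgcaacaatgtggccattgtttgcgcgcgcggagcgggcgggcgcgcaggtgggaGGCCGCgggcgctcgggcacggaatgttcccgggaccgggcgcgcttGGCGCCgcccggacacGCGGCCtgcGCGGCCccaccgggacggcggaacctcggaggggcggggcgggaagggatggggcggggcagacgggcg
Hils1 peak, chr11:94954655-94954954: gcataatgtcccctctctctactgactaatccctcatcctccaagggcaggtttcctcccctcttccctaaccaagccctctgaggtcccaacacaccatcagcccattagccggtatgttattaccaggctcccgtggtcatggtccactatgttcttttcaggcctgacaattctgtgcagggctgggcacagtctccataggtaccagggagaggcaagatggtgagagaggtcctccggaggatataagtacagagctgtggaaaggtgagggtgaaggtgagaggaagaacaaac
Sytl2 peak, chr7:90332681-90332980: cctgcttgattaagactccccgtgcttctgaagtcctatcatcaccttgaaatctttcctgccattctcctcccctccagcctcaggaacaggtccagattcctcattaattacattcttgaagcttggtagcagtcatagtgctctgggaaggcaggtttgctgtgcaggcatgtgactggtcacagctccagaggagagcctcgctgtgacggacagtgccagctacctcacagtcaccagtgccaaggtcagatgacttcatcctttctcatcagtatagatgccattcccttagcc
Guca1b peak, chr17:47379711-47380010: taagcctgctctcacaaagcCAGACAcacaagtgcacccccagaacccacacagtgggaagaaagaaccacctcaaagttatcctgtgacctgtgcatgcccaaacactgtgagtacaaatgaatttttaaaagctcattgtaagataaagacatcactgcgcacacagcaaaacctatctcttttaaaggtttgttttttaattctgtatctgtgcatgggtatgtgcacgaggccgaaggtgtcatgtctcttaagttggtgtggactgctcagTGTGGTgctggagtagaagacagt
Irf8 exon peak, chr8:120739818-120740117: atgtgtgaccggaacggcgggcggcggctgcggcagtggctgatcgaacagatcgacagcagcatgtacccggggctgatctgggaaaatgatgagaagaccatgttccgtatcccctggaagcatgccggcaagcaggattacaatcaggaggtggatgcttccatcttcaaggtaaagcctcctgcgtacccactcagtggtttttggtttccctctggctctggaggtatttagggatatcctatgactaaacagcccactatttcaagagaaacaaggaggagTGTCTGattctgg
Irf8 promoter peak, chr8:120736058-120736357: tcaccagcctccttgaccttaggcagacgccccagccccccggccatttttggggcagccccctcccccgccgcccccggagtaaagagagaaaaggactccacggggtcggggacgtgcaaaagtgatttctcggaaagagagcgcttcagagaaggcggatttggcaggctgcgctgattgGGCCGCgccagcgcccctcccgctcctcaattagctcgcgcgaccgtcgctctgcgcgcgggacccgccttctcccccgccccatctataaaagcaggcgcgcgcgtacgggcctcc
Cadm1 intron peak, chr9:47552935-47553234: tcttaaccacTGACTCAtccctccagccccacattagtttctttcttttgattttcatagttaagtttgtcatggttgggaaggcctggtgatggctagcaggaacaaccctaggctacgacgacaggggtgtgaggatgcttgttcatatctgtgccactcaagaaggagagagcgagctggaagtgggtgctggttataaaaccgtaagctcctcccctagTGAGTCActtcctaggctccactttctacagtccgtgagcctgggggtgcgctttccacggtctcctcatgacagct

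Few regions passed the test after restoration, and those that did formed a short list of named loci. A peak was called when its log2 fold change, Smad4 on over Smad4 off, was at least 0.58 in size with an adjusted p of at most 0.1 in limma. With that rule 5 of 136630 peaks were called (0.00366%), of which 3 fell and 2 rose. Of the 5, 2 lay in Gli2, a zinc-finger factor that carries the transcriptional output of Hedgehog signalling. All 5 were also called when replicates were paired by number, and 4 of them by edgeR, which called 4 in all. DESeq2 called 997, these 5 among them. A fit to the lung samples alone called none, and leaving out single libraries moved the count between 0 (without Smad4 on replicate 2) and 25 (without Smad4 off replicate 3).

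The Gli2 promoter peak (chr1:119051310-119054303, 813 bp from the start by its centre) held normalised counts of 792, 926 and 1021 with Smad4 off and 250.4, 309 and 356 with Smad4 on. The highest Smad4 on sample had less than the lowest Smad4 off sample. Its log2 fold change was −1.59 ± 0.19 (SE), or 0.333 of the Smad4 off level (95% interval of the log2 value −1.99 to −1.19, n = 3 per group, adjusted p = 0.0326). A second Gli2 peak in the first part of the gene (chr1:119047579-119048628, intron) held 189, 229 and 215 with Smad4 off and 56.2, 66.1 and 77.5 with Smad4 on. It fell by 1.66 ± 0.22 (SE) on the log2 scale, with no overlap between groups (adjusted p = 0.0410). The 3 replicate pairs gave −1.66, −1.58 and −1.52 at the promoter. The window shown from the intron peak holds 5 matches of the SMAD GC element, and that of the promoter none of the 4 motif families.

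The remaining peak that fell was intergenic on chromosome 11 (chr11:94953388-94956222), 12788 bp from Hils1, which codes for a linker histone of spermatids. Its counts were 758, 739 and 724 with Smad4 off and 371, 247 and 293 with Smad4 on, a log2 fold change of −1.30 ± 0.17 (SE) (adjusted p = 0.0410). The nearest gene only names the place, since distance does not say which gene a region acts on.

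Of the peaks that rose, the stronger lay 15868 bp from Sytl2, which codes for a synaptotagmin-like protein that binds Rab27 on secretory vesicles. Its counts were 33.1, 23.9 and 30.2 with Smad4 off and 108, 111 and 103 with Smad4 on. Every Smad4 on sample thus stood at more than 3 times every Smad4 off sample, and the log2 fold change was 1.86 ± 0.26 (SE) (95% interval 1.31 to 2.41, adjusted p = 0.0692). The other, 5532 bp from Guca1b, a calcium-binding activator of guanylate cyclase known from photoreceptors, was a broad region with counts of 505, 555 and 453 with Smad4 off and 807, 868 and 1004 with Smad4 on. It rose by 0.82 ± 0.12 (SE) on the log2 scale (adjusted p = 0.0705).

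**Figure D1:**
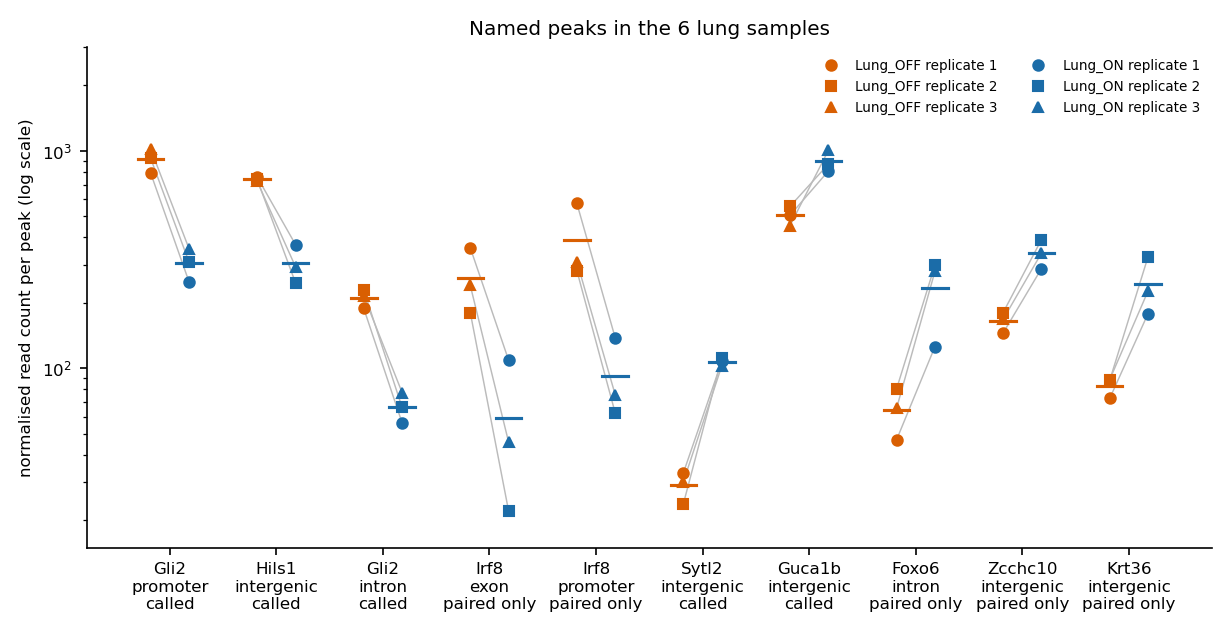
Normalised counts (log axis) of 10 named peaks in the 3 Smad4 off and 3 Smad4 on lung samples. Points are samples, lines join samples of one replicate number and bars mark group means. The Gli2 promoter peak runs from 792 or more with Smad4 off to 356 or less with Smad4 on, and the Irf8 peaks fall within each pair while the pairs differ in level.

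Deviations from the group means went together clearly only for replicate 1 (correlation 0.49). They correlated by 0.12 and 0.21 in replicates 2 and 3, whose crosswise pairs reached 0.18. What the numbers mark is not known, so calls that need this pairing are less secure. The comparison was also made within pairs by number. Pairing raised the number of called peaks from 5 to 41 (0.0300%), with 13 that rose and 28 that fell. Of these, 38 had groups that did not overlap and 38 were also called by DESeq2. Over all 136630 peaks, groups did not overlap at 5.89% that were higher and 4.82% that were lower, and DESeq2 called 997. Both counts use the samples that gave the paired calls, so they are no independent support. By position 22 lay in introns, 14 between genes, 3 at promoters and 2 in exons. Gli2 held 5 of the 41, and distal chromosome 6 held 4 (2 in Ptpro, 1 each near Plekha5 and Pyroxd1), where Smad4 off replicate 1 carried the raised level described above. The log2 fold changes ran from 0.82 to 2.51 among those that rose and from −0.80 to −3.49 among those that fell. The 2 peaks at Ear1 and Gm5624 lie in a part of chromosome 14 with multi-copy gene families, where reads of near-identical copies cannot be told apart. Leaving out Smad4 off replicate 1 left 1 paired call, and leaving out any other single lung sample left 0 to 8.

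Irf8, a transcription factor of the interferon-regulatory family best known from myeloid and B cells, had 2 peaks that limma called lower only when the samples were paired, and DESeq2 unpaired (adjusted p = 9.61e-05 at the promoter and 0.000366 in the exon). Its promoter peak (chr8:120735852-120736881) held 573, 281 and 309 with Smad4 off and 138, 62.3 and 75.6 with Smad4 on. Its exon peak (chr8:120739412-120740384) held 358, 180.4 and 240.4 with Smad4 off and 109, 22.0 and 45.7 with Smad4 on. Smad4 off replicate 1 was the highest sample at both peaks, and Smad4 on replicate 1 the highest of its group. The log2 fold changes were −2.07 ± 0.35 (SE) at the promoter and −2.35 ± 0.41 (SE) in the exon, with limma adjusted p = 0.158 and 0.182 unpaired, and 0.0377 and 0.0113 paired.

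Because Irf8 is also a leukocyte gene, leukocyte markers were read beside it. Of 8 such genes, 4 had a peak at their start, and the defining genes Ptprc, Spi1, Adgre1 and Itgam had none. The counts of the 39 peaks assigned to them summed to 3535 to 4116 with Smad4 off and 3428 to 3519.8 with Smad4 on. The summed level was thus lower in every Smad4 on sample. At the starts with a peak the sums overlapped, with 889, 982 and 825 with Smad4 off and 841, 840 and 843 with Smad4 on. By replicate pair, the median log2 fold changes of the 39 peaks were −0.35, 0.12 and −0.11. The part of the leukocyte level in the Irf8 difference was not tested. In bulk nuclei, fewer cells that open a region and less opening in each cell cannot be told apart.

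Cadm1, a cell adhesion molecule of the immunoglobulin superfamily, had a lower intronic peak, also called by limma only in pairs, with counts of 212, 26.1 and 27.6 with Smad4 off and 8.98, 3.83 and 2.80 with Smad4 on (log2 fold change −3.27 ± 0.64 (SE), adjusted p = 0.210 unpaired and 0.0404 paired in limma, and 0.000235 unpaired in DESeq2). Smad4 off replicate 1 stood far above the rest there. The window shown for this peak holds 2 AP-1 matches. Outside the naming rule, and picked after their values were seen, are the next 2. A peak in Slc29a3, a nucleoside transporter of lysosomes, held 79.2, 77.2 and 92.2 with Smad4 off and 13.5, 11.5 and 24.3 with Smad4 on (paired adjusted p = 0.0620). The promoter peak of Bdkrb2, the bradykinin B2 receptor, held 549, 155 and 119.8 with Smad4 off and 152, 39.3 and 36.4 with Smad4 on, so its groups overlapped (adjusted p = 0.0620 paired in limma and 0.0819 unpaired in DESeq2).

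Among the 13 that rose in pairs, a peak in an intron of Foxo6, a forkhead factor, held 46.9, 80.4 and 65.5 with Smad4 off and 126, 298 and 279 with Smad4 on (log2 fold change 1.78 ± 0.33 (SE), paired adjusted p = 0.0620). An intergenic peak near Krt36, a hair keratin, went from 83.2 ± 9.05 to 244 ± 75.1 (mean ± SD, n = 3 per group, paired adjusted p = 0.0636). A peak 9585 bp from Zcchc10 went from 165 ± 17.7 to 339 ± 51.8 (paired adjusted p = 0.0620). The largest rise of the named peaks was near Gm26897, where counts were 14.7, 14.1 and 18.1 with Smad4 off and 41.6, 98.7 and 199 with Smad4 on (log2 fold change 2.51 ± 0.46 (SE), paired adjusted p = 0.0763). Its level differed widely among the Smad4 on samples, but the groups did not overlap.

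**Figure D2:**
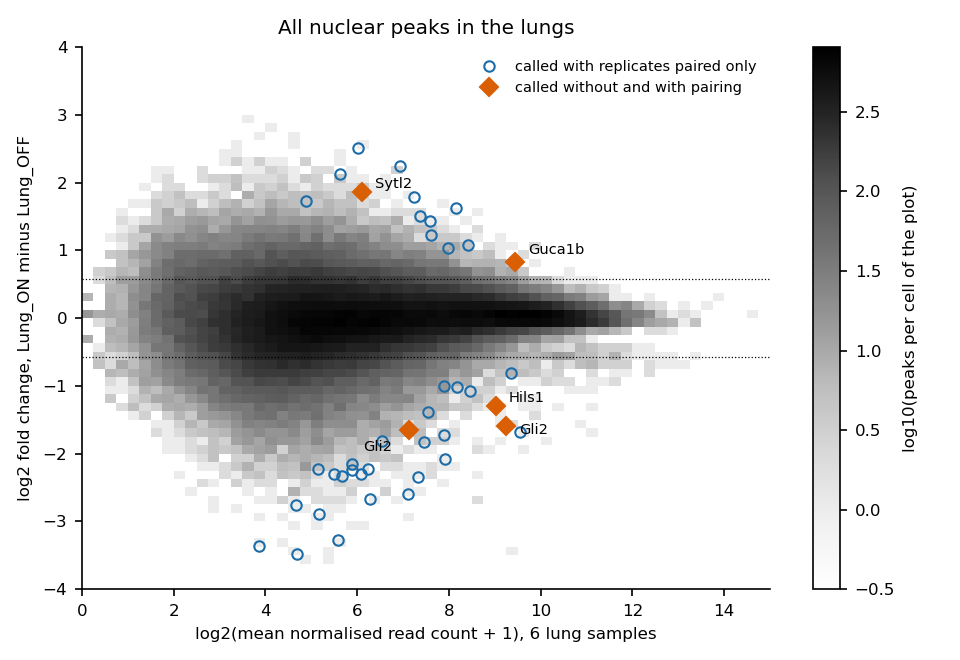
Density of all 136630 peaks by mean lung level (log2 of the normalised count plus 1) and log2 fold change, Smad4 on over Smad4 off. Diamonds mark the 5 called peaks, circles the 36 that limma called only in pairs, and dotted lines log2 fold changes of 0.58 in either direction. Scatter is widest at low counts, where the median SE was 0.57 over the 34158 peaks with the lowest counts and 0.17 over the 34158 with the highest.

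Across all peaks, 4995 (3.66%) were higher and 4725 (3.46%) lower with an unadjusted p under 0.05. Distal chromosome 6, where Smad4 off replicate 1 was raised, held 2 of those higher and 619 of those lower. A fit without that stretch gave 5038 higher and 4163 lower of 134219 peaks. Groups did not overlap at 8054 peaks that were higher (5.89%) and 6588 that were lower (4.82%). The median 95% interval of a peak's log2 fold change was ±0.76, and ±0.35 over the 34158 peaks with the highest counts. These intervals are not adjusted for the number of peaks, so a call at a typical peak needed a larger difference than that. Promoter peaks were under these shares (1.87% higher, 2.43% lower), while intronic (3.93% and 3.65%) and intergenic peaks (3.82% and 3.50%) were slightly over them.

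Summing all peaks within 100 kb of their nearest protein-coding gene gave 17795 loci, of which 2 were called (0.0112%), Irf8 lower and Guca1b higher. The 13 peaks of Irf8 summed to 1776, 1118 and 1227 with Smad4 off and 636, 341 and 460.04 with Smad4 on. The log2 fold change was −1.53 ± 0.23 (SE) (adjusted p = 0.0813, paired 0.00231), all 13 peaks had the lower sign, and 10 had an unadjusted p under 0.05. The Guca1b locus has 2 peaks and repeats the called peak (log2 fold change 0.74, adjusted p = 0.0813). The Irf8 locus did not pass in edgeR (adjusted p = 0.170), with TMM factors, quantile normalisation or GC correction, or without Smad4 off replicate 1 (log2 fold change −1.33, adjusted p = 0.173). Pairing called 11 loci (0.0618%), 2 with GC correction, 1 without Smad4 off replicate 1 and 18 higher and 104 lower without Smad4 off replicate 3.

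Accessibility of Gli2 was lower in sign at every peak assigned to it. Peaks beyond the assignment distance from its start were not counted for Gli2. Its 26 peaks summed to 4469, 4332 and 5779 with Smad4 off and 1789, 2156 and 2457 with Smad4 on, and all 26 had the lower sign, 17 of them with an unadjusted p under 0.05. The locus fold change of −1.19 ± 0.21 (SE) did not pass the test (adjusted p = 0.221, paired 0.107), while the sum over peaks within 20 kb of the start did, with −1.59 (adjusted p = 0.0202). Other Hedgehog genes, named after their values were seen, showed no such pattern at this depth. Their log2 fold changes were −0.09 for Gli1, 0.03 for Gli3, −0.02 for the receptor Ptch1, 0.12 for the transducer Smo and −0.72 for the inhibitor Hhip, each with an unadjusted p over 0.05.

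Plxna4, a receptor of semaphorins in axon guidance, had the reverse pattern. Its 12 peaks summed to 677, 546 and 878 with Smad4 off and 1886, 1835 and 1304 with Smad4 on, all 12 had the higher sign and 10 an unadjusted p under 0.05, although the locus fold change of 1.27 ± 0.25 (SE) did not pass the test (adjusted p = 0.221). Plxna4 lies in a shifted window, that of 2 Mb from 32 Mb on chromosome 6 (74 peaks). Its median log2 deviations were −0.20, −0.59 and −0.06 with Smad4 off and 0.06, 0.26 and 0.21 with Smad4 on. The part of this regional shift in the locus difference was not tested. The other loci of low p-value in this direction were Krt36, Sytl2 (13 peaks, 0.52), Vash1 (0.74), a tubulin carboxypeptidase known as a brake on vessel growth, Hdac11 (0.41), a histone deacetylase, Camk1g (0.40), a calmodulin-dependent kinase, and D130052B06Rik. Lower with Smad4 on were Cd83 (−0.70), a surface protein of dendritic and B cells, Flrt2 (−0.67), an adhesion receptor, Fam234b (−0.95, on distal chromosome 6) and 1700129C05Rik. Fam49a (14 of 16 peaks lower with unadjusted p under 0.05, log2 fold change −1.13) and the Dishevelled-binding gene Dact2 (9 of 13 peaks, −0.93) had a paired adjusted p of 0.0406 each. Of these loci, Krt36, Fam234b, Fam49a and Dact2 passed limma's test only in pairs.

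**Figure D3:**
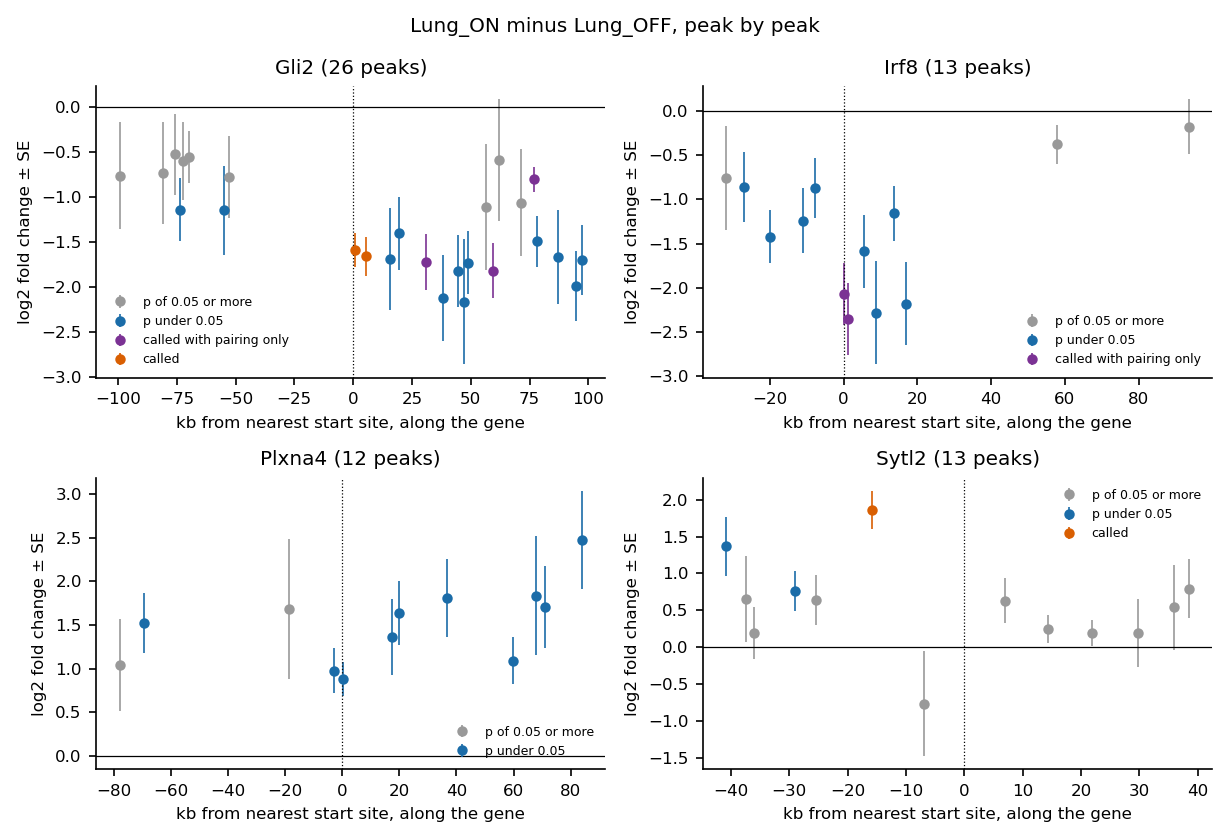
Log2 fold change (Smad4 on over Smad4 off, ± SE) of each peak against its distance in kb from the gene start for Gli2, Irf8, Plxna4 and Sytl2. All Gli2 and Irf8 peaks lie under 0 and all Plxna4 peaks above it, while at Sytl2 the called peak stands highest with 1.86.

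The pathway itself was read through gene lists ordered by role, where a peak counts for its nearest gene. No peak of the pathway lists was called, so members are given by counts and levels, beside 3.66% higher and 3.46% lower for all peaks. Among TGFβ ligands and the proteins that hold or release them, 15 of 171 peaks (8.77%) were higher and 0 lower with an unadjusted p under 0.05, with a median log2 fold change of 0.15 (0.06 without Smad4 off replicate 2, and 7 peaks higher without Smad4 on replicate 1 or 2). The lowest p-value was at the promoter of Ltbp3, which tethers latent TGFβ to the matrix, with 2193, 2291 and 2425 with Smad4 off and 2760.4, 3219.5 and 3028 with Smad4 on (log2 fold change 0.38 ± 0.08 (SE), adjusted p = 0.236). BMP ligands and antagonists had 1 peak higher and 2 lower of 132.

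Receptors of the TGFβ superfamily had more peaks lower than higher, with 12 of 131 peaks (9.16%) lower and 1 higher (median −0.09), and 6 lower without Smad4 on replicate 2. First by p-value stood a peak of Bmpr1b, a BMP type I receptor, with counts of 17.5, 52.2 and 37.0 with Smad4 off and 8.98, 4.79 and 5.599 with Smad4 on. For Smads and their inhibitors, 18 of 254 peaks (7.09%) were higher and 4 lower. The count higher was 8 (3.15%) without Smad4 on replicate 2, 27 without Smad4 off replicate 3, and 14 beside 10 lower without Smad4 off replicate 1. Pmepa1, which retains receptor-activated SMADs and is a common TGFβ target, had start-site counts of 10433, 12868 and 14502 with Smad4 off and 14697, 15476 and 15403 with Smad4 on, a small difference of 0.28 ± 0.09 (SE) with groups that did not overlap. The start of Smad7, the inhibitory SMAD, held 10426, 11259.8 and 10972 with Smad4 off and 11234, 11089 and 11832 with Smad4 on, and its groups overlapped.

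Genes known to respond to TGFβ had more peaks higher than lower. Of 331 peaks, 37 (11.2%) were higher and 3 lower (median 0.16), with at least 1 such peak at 16 of 19 genes. The count was 17 without Smad4 on replicate 2, 23 without Smad4 off replicate 1 and 60 without Smad4 off replicate 3. Smad7, Skil and Pmepa1 are also on the list of Smads and their inhibitors, so the counts of those lists share peaks. The lowest p-value was at Adam12, a metalloprotease, with 50.6, 9.78 and 81.0 with Smad4 off and 162, 189 and 107 with Smad4 on (log2 fold change 2.07 ± 0.53 (SE), adjusted p = 0.362). The fibrogenic effectors, 6 genes that the study singled out from its RNA data (Il11, Has2, Col6a1, Itga5, Ccbe1 and Ccn4), had 18 of 71 peaks (25.4%) higher and 0 lower, and a median of 0.52. This list was chosen by the study for its response and is no independent evidence of direction. The pairs gave medians of 0.35, 1.08 and 0.11, the largest in replicate 2. Without Smad4 off replicate 2 the median was 0.21 and 6 peaks were higher, without Smad4 on replicate 2 there were 8, and without Smad4 off replicate 3 there were 28.

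Single members did not pass the test. The start-site peak of Has2, a hyaluronan synthase, held 1486, 1245 and 1539 with Smad4 off and 1869.9, 2115 and 1644 with Smad4 on (log2 fold change 0.40 ± 0.13 (SE)), and a distal Has2 peak held 135, 183 and 241 with Smad4 off and 337, 493 and 367 with Smad4 on (log2 fold change 1.11 ± 0.26 (SE), adjusted p = 0.297). The start of Il11, a profibrotic cytokine, held 596, 396 and 689 with Smad4 off and 839, 682 and 672 with Smad4 on, and the groups overlapped. Integrins had 15 of 193 peaks higher and 1 lower, with 7 higher (3.63%) without Smad4 on replicate 2, led by a peak of Itgb1 with 20.3, 20.6 and 45.7 with Smad4 off and 101, 117 and 67.2 with Smad4 on (adjusted p = 0.206). For extracellular matrix genes the counts were 18 higher and 5 lower of 363 (median 0.14). Without Smad4 off replicate 2 they were 15 higher and 19 lower (median −0.02), and without Smad4 on replicate 2, 8 were higher. Has2 and Col6a1 are also on the matrix list and Itga5 on the integrin list, so these counts share peaks with the fibrogenic effectors. A peak of Col6a3, a collagen VI chain, held 40.5, 30.4 and 31.9 with Smad4 off and 91.0, 91.1 and 89.6 with Smad4 on (log2 fold change 1.39 ± 0.31 (SE), adjusted p = 0.271). The Col1a1 start, at the locus that carries the hairpin cassette, held 986, 909 and 957 with Smad4 off and 1172, 1158 and 1139 with Smad4 on.

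Lists of cell state and of other transcription factors are read against the same background. The cytostatic programme with the Id genes had 4 higher and 7 lower (4.76%) of 147, and the start of Cdkn1c, the cyclin-dependent kinase inhibitor p57, held 287, 366 and 342 with Smad4 off and 385, 412 and 418 with Smad4 on (log2 fold change 0.29 ± 0.14 (SE), adjusted p = 0.695). This list also holds Cdkn1b, which lies on distal chromosome 6. EMT factors and mesenchymal genes had 1 higher and 1 lower of 183, with a median of 0.02. Epithelial identity genes had 5 and 7 of 196, and 18 higher (9.18%) without Smad4 off replicate 2. Among them the start of Cldn3, a tight-junction protein, held 772, 1411 and 752 with Smad4 off and 807, 450.5 and 318 with Smad4 on and its groups overlapped. RUNX genes had 5 higher and 4 lower of 112, KLF genes 12 and 7 of 184 (6.52% higher), and AP-1 genes 4 and 0 of 104. In the gastric list (3 higher, 5.77%, and 0 lower of 52, and 15.4% higher without Smad4 off replicate 2), a peak at Tff1, a secreted trefoil factor, held 88.4, 118 and 164 with Smad4 off and 197, 233 and 272 with Smad4 on, with every Smad4 on sample above every Smad4 off sample.

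**Figure D4:**
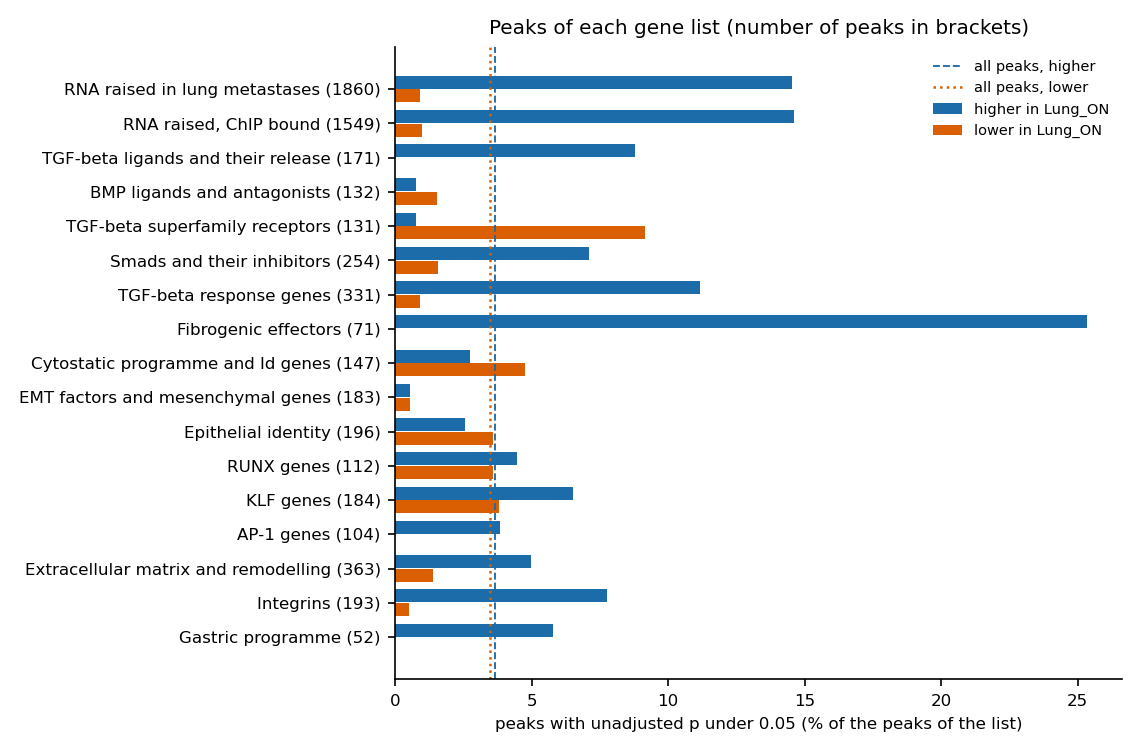
Percent of the peaks of each gene list that were higher or lower with Smad4 on (unadjusted p under 0.05). Dashed lines give the same for all peaks (3.66% and 3.46%). Fibrogenic effectors reach 25.4% higher, genes with raised RNA in lung metastases 14.5%, and receptors have 9.16% lower.

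Genes listed by the study for higher RNA in lung metastases after restoration gave the largest list. RNA was measured in other libraries, so this asks whether the genes with more transcript also had more open chromatin. Of 190 such genes, 177 matched, and of their 1860 peaks 270 (14.5%) were higher and 17 (0.914%) lower with an unadjusted p under 0.05. The median log2 fold change was 0.21 beside −0.0024 for all peaks, and 73.8% of the peaks were above 0. At the level of loci, 49 (27.7%) were higher and 0 lower, where all loci had 3.05% higher and 3.39% lower. The called Sytl2 peak and the Foxo6 peak called in pairs belonged to this list.

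The pairs gave list medians of 0.15, 0.43 and 0.07, each above 0 and the largest in replicate 2. Without Smad4 off replicate 2 the list median was 0.13, and without Smad4 on replicate 2 7.74% of its peaks were higher, where the number over all peaks in both directions also dropped from 9720 to 5991. The count was highest without Smad4 off replicate 1, at 335. Members with the lowest p-values of locus sums, named after their values were seen, were Sytl2, Vash1 and Plxna4 (above), Ncam1, a neural cell adhesion molecule, with 1593, 1302 and 2186 with Smad4 off and 2582, 3336 and 2421 with Smad4 on (log2 fold change 0.73 ± 0.16 (SE)), and Adam12 with 1341, 1336 and 1819 with Smad4 off and 2329, 2371 and 2027 with Smad4 on (0.59 ± 0.15 (SE)). Groups did not overlap at any of these 5 loci. The subset that the study also marked as bound in chromatin immunoprecipitation of SMAD2/3 had 226 of 1549 peaks higher and 15 lower (median 0.22).

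Differences from the other organs were tested as the lung effect minus the effect in pancreas tumours or liver metastases. In limma no peak passed for lungs minus pancreas (0.00%, with 9190 higher and 5783 lower at an unadjusted p under 0.05), none did in edgeR, and DESeq2 called 2255. Pairing the lung samples called 2385 (1.75%). For lungs minus liver no peak passed (0.00%) in limma or edgeR, 2180 higher and 4991 lower had an unadjusted p under 0.05, and DESeq2 called 48.

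The Gli2 and Hils1 peaks were also called in the other organs, where 4675 peaks (3.42%) were called in pancreas tumours and 752 (0.550%) in liver metastases. The log2 fold change of the Gli2 promoter peak was −1.07 in pancreas tumours (adjusted p = 0.0157) and −2.05 in liver metastases (adjusted p = 0.00791), and the peak near Hils1 fell by 1.23 and 2.73 on the log2 scale there. At the Sytl2 peak the values were 0.35 and 0.85, neither called. The lung effect exceeded the pancreas effect by 1.51 ± 0.37 (SE), with adjusted p = 0.246 unpaired and 0.0866 paired.

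Irf8 was compared in the same way. Its promoter and exon peaks had log2 fold changes of 0.76 and 0.63 in pancreas tumours and −0.04 and 0.12 in liver metastases. The lung effects were lower than those of pancreas by 2.83 ± 0.49 and 2.98 ± 0.58 (SE, log2 scale), with adjusted p = 0.229 for both unpaired and 0.0205 and 0.0155 with the lung samples paired. The list with raised RNA in lung metastases had medians of 0.16 in pancreas and 0.35 in liver beside 0.21 in lungs, and the fibrogenic effectors 0.37, 0.76 and 0.52. These list medians were not tested against each other.

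Peaks with an AP-1 match (51.4% of all) had 5.02% higher and 3.14% lower at an unadjusted p under 0.05. Those with a SMAD box (50.0%) had 4.46% and 3.39%, and those with a RUNX match 4.37% and 3.44%. These shares did not set the SMAD box and RUNX apart. For AP-1 the replicate pairs gave median log2 fold changes of −0.01, 0.10 and 0.02, the largest in replicate 2. Peaks with a TWIST E-box (CATATG) had 4.58% and 3.38%, and those with the p53 letters CATGCCC 4.50% and 3.50%. Every other family searched had a smaller share higher than RUNX, with HNF4 the nearest (4.28% and 2.71%). The SMAD GC element, which is rich in G and C like many promoters, had 2.91% and 2.74%. With the whole peak searched, the mean log2 level of peaks with a match, less that of peaks without one, overlapped between the lung groups for each of the 18 motif families, and the median log2 fold change with a SMAD box was 0.01. With only the central 200 bases searched, NF-kB was the only one of the 18 families for which the groups did not overlap. Its differences, centred on the mean of the lung samples, were 0.05, 0.06 and 0.11 with Smad4 off and −0.16, −0.10 and 0.04 with Smad4 on. Of 1684 such peaks, 1.72% were higher and 5.17% lower at an unadjusted p under 0.05. With so many families looked at and 3 samples per group, 1 family without overlap can arise by chance, and it was not tested.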

How the data were processed

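Per the labels and the methods of the study, paired-end reads of 150 bases were trimmed (Trim Galore, cutadapt), aligned to mm10 with Bowtie2, checked with FastQC 0.11.5, and peaks were called by MACS2 (p of at most 0.001), merged within 500 bp over all samples and counted by featureCounts. The deposited signal values are these read counts divided by DESeq2 size factors by the authors, and 100% of values came back as whole reads (within 0.01).

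Here log2(value + 1) of 136630 nuclear peaks was fitted with limma 3.58.1 (trend and robust, R 4.3.3) over the 6 group means of all 16 samples, with Benjamini-Hochberg adjustment over all peaks or all 17795 loci and two-sided tests. A call needed a log2 fold change of at least 0.58 in size and an adjusted p of at most 0.1. Peaks were assigned by their centre to the nearest protein-coding start within 100 kb (GENCODE vM21). Start-site peaks lie within 1000 bp of a start. edgeR 4.0.16 and DESeq2 1.42.0 on the recovered reads were alternatives. Each sample is 1 mouse. A further allele of the model, a gene and a gene list are not reported here. The labels share replicate numbers without saying what a number marks: deviations from the group means correlated by 0.49, 0.12 and 0.21 within same-numbered lung samples, above 0.1 in each, so a fit that adds lung replicate numbers as a block (called paired) is given where it changed a call. The crosswise pairs of replicates 2 and 3 also reached 0.18. Replicates of a group differed by more than counting noise (chi-square per degree of freedom at least 4.52).

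Named genes were the called peaks, the 6 of lowest p-value in each direction called in pairs, the 8 loci with the lowest p-value in each direction and start-site peaks and the peak of lowest p-value of each list. The members, lists and tests were chosen with earlier results of these data known. Scripts were tested on simulated data. The precision is limited by 3 mice per group.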

Additional observations from a re-analysis of the deposited data

Results flagged for a closer look

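The summed accessibility of 2 loci passed the test of the difference between the lung effect and the effect in pancreas tumours (0.0112% of all loci), both higher in lungs. At Hdac11, which codes for a histone deacetylase, the 7 peaks summed to 1640.3, 1530.2 and 1611 with Smad4 off and 2100.1, 2247 and 2017 with Smad4 on in the lungs, a log2 fold change of 0.41, beside −0.35 in pancreas tumours. The difference was 0.7585 ± 0.11 (SE, limma adjusted p = 0.0714). At Pax7, a paired-box transcription factor of muscle precursors and neural crest, the 11 peaks summed to 419, 505 and 366 with Smad4 off and 562, 668 and 602 with Smad4 on in the lungs (0.51 on the log2 scale) beside −0.91 in pancreas tumours (limma adjusted p = 0.0247). The difference was 1.425 ± 0.22 (SE, limma adjusted p = 0.0714). Neither lung effect passed the test alone. The edgeR test called 1 locus for this difference and DESeq2 340. In limma none was called with GC correction, without Smad4 off replicate 1 or without Smad4 on replicate 2 or 3, 1 (lower in lungs) without Smad4 off replicate 3, and 604 without Smad4 off replicate 2.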

How the results depend on the processing

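The 3 mice per group limited every count. The number of called peaks (5) was 4 with TMM factors (1 higher, 3 lower), 4 in edgeR, 5 with GC correction, quantile normalisation, a minimum mean count of 20 or without distal chromosome 6, and 6 with a pseudocount of 10. It was 997 in DESeq2 (452 higher, 545 lower), 0 with lung groups only, 41 with the replicate block in the lungs, 43 with that block and GC correction, 1 with a block in every organ, 3 at thresholds of 1 and 0.05, and 0 to 25 when single replicates were left out (17 without Smad4 off replicate 1, 3 without replicate 2 and 25 without replicate 3, and 22, 0 and 1 without Smad4 on replicates 1, 2 and 3). Peaks at an unadjusted p under 0.05 (9720) ranged from 5991 without Smad4 on replicate 2 to 11768 without Smad4 off replicate 1 when single samples were left out. They were 7490 with lung groups only, 12156 with the block in the lungs, 12471 with that block and GC correction, and 13835 with the block in lung groups only. Called loci (2) were 103 in DESeq2, 1 each with GC correction, TMM factors, quantile normalisation and edgeR (Guca1b, higher, in these 4 fits), 0 with lung groups only, 11 with the block in the lungs, 1 with a block in every organ, 0 at the stricter thresholds, 5 for peaks within 20 kb, and 0 (without Smad4 off replicate 1, or without Smad4 on replicate 2 or 3) to 57 (without Smad4 off replicate 3). The 11 paired loci were 2 with GC correction or in lung groups only, 1 without Smad4 off replicate 1 or Smad4 on replicate 1, and 18 higher and 104 lower without replicate 3 of either group.

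For lungs minus pancreas (0 peaks) the counts were 2255 in DESeq2, 1 with quantile normalisation, 248 with a block in every organ, 2385 with the block in the lungs, 2377 with that block and GC correction, and 0 to 4000 when single replicates were left out (4000 without Smad4 off replicate 2). For lungs minus liver (0 peaks) DESeq2 called 48, and leaving out replicates gave 0 to 5. Paired calls (41) fell to 0 to 8 when single replicates were left out and to 5 in the lung samples alone. Leaving out 1 sample leaves its partner unpaired. These paired alternatives, and list values without single samples, were added after the data were seen. Among the named peaks and loci that were recomputed under the alternatives, the block changed no call other than those given as paired. None of these changed sign under an alternative run on it. The median log2 fold change ranged from 0.13 to 0.28 for the genes with raised RNA and from 0.21 to 0.63 for the fibrogenic effectors. The cause of these shifts was not tested.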

Other observations

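Some loci were called in limma only when replicates were paired. Daam2, a formin that acts in Wnt signalling, had 2 peaks that summed to 152, 51.1 and 52.6 with Smad4 off and 37.1, 10.5 and 22.4 with Smad4 on (log2 fold change −1.79 ± 0.46 (SE), limma adjusted p = 0.377 unpaired and 0.0780 paired). The 16 peaks of Bdkrb2 summed to 3551, 826 and 590.2 with Smad4 off and 755, 173 and 222 with Smad4 on (paired limma adjusted p = 0.0406), with overlapping groups. St8sia1, the GD3 ganglioside synthase, lies on distal chromosome 6 and its 13 peaks summed to 3035, 902 and 706 with Smad4 off and 524, 335 and 393 with Smad4 on (paired limma adjusted p = 0.0780). Ear1, of a multi-copy ribonuclease family, had a log2 fold change of −1.66 with overlapping groups.

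The counts of 30 peaks at club and ciliated cell genes summed to 9607 to 10956 with Smad4 off and 11091 to 13149 with Smad4 on, although Scgb1a1, Scgb3a2 and Cyp2f2 had no start-site peak. A peak assigned to Sftpb, a surfactant protein gene without a start-site peak here, held 168, 192 and 165 with Smad4 off and 273, 387 and 305 with Smad4 on (log2 fold change 0.86 ± 0.17 (SE), limma adjusted p = 0.235). Of all 14 peaks at alveolar type 2 genes, 1 was higher and 2 lower at an unadjusted p under 0.05, among them a lower peak of Sftpd (log2 fold change −0.81 ± 0.32 (SE), limma adjusted p = 0.606). Their summed counts were 3148 to 4235 with Smad4 off and 3788 to 4061 with Smad4 on. Endothelial marker peaks summed to 5026 to 6851 and 5919.6 to 6899.6, alveolar type 1 marker peaks to 3482 to 4423 and 3142 to 3806, and fibroblast marker peaks to 2749 to 5099 and 3010.3 to 3514, with overlapping ranges for all 4. At starts with a peak, endothelial sums were 878, 291 and 283 with Smad4 off and 320, 224 and 251 with Smad4 on. Fibroblast sums there were 517, 174 and 397, then 204, 218 and 189. Smad4 off replicate 1 was highest in both, but not at alveolar type 1 starts (508, 503 and 556, then 481, 542 and 544).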
